A study of Mus musculus with 14 samples.

Results

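The genes described are 56 chemokines and chemokine receptors, chosen by name among the 19532 named genes of a mouse whole-genome Agilent array: every symbol starting Ccl, Cxcl, Ccr or Cxcr followed by a digit, together with Xcl1, Cx3cl1, Cx3cr1 and Ackr1 to Ackr4. They comprise 35 ligands, 17 signalling receptors and 4 atypical receptors, read by 73 probes (39 genes by a single probe and 17 by several). The arrays came from a study of Tsk2, a mouse mutation that gives tight, fibrotic skin and that lies in Col3a1, the gene of the type III collagen chain. The fibroblasts were from Col3a1 knockout mice, so both culture groups lacked a working Col3a1 gene of their own, and they had been transfected with WT Col3a1 (3 arrays, numbered 1, 3A and 3B) or with Tsk2 Col3a1 (3 arrays, numbered 1 to 3). The skin was total skin of 4-week-old female mice, either Tsk2 (4 arrays) or WT (4 arrays). The series' design text gives 3 animals of each genotype, against 4 in the sample labels, and all 4 were used. The labels do not say whether the fibroblast samples were separate cultures, nor do they give the vector or the copy number of Tsk2 in the mice, so p-values among the cultures rest on a spread that may be technical.

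Chemokines are small secreted proteins that bind G protein-coupled receptors on leukocytes and other cells and direct their movement along a gradient. CXC ligands such as Cxcl1 and Cxcl5 attract neutrophils through Cxcr2, the interferon-induced ligands Cxcl9, Cxcl10 and Cxcl11 attract activated T cells through Cxcr3, and CC ligands attract monocytes, eosinophils, dendritic cells or T cells according to the receptor they bind. In skin, keratinocytes, fibroblasts, endothelial cells and resident immune cells all make chemokines, and the atypical receptors Ackr1 to Ackr4 bind them without the usual G protein signal and take them up or carry them.

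Each value is the log2 ratio of a sample to a universal mouse reference RNA, averaged over the probes of a gene, so levels of different genes cannot be ranked against each other. A difference was called where the adjusted p of limma, a linear model fitted to all genes with Benjamini-Hochberg adjustment over the 19532 genes tested, was below 0.05. Values that occur 50 times or more on 1 array were treated as a mark of dim probes, since they made up 86.9% of the values of 1097 olfactory and vomeronasal receptor probes and 10.2% of those of 143 ribosomal protein probes. Of the chemokine and receptor genes, 20 had no such repeated value and 18 had them in more than 50% of their values. Between 312 and 4796 probes were listed at exactly 0 on 13 of the 14 arrays, and 12391 (30.1%) on WT skin replicate 2. Col3a1 itself stood at -2.25 ± 0.0626 in Tsk2-transfected and -2.31 ± 0.0740 in WT-transfected cultures (SD, n = 3 each; limma's adjusted p = 0.805). In skin it stood at 2.37 ± 0.202 in Tsk2 and 1.59 ± 0.514 in WT mice (SD, n = 4 each; adjusted p = 0.122). The level in the cultures cannot be taken to measure the transfected alleles, since where the probes lie relative to them is not known. Markers of all leukocytes (Ptprc, Coro1a and Laptm5) averaged between -3.30 and -2.95 in the cultures and between -1.53 and -0.23 in skin, and markers of fibroblasts between 0.61 and 1.05 in the cultures. In bulk RNA of this kind, fewer cells of a type and less RNA per cell cannot be told apart.

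In the transfected fibroblasts, Cxcl10 and Ccl5 fell with the Tsk2 allele. No chemokine or receptor gene rose past the threshold. The 2 of 56 that fell compare with 0.0358% of all genes called lower, and the 0 that rose with 0.0154% called higher. At an unadjusted p below 0.05, 4 were higher and 6 lower, 10 of the 56 in all, beside 2186 of the 19532 genes tested. The median difference was 0.02 over the 56 genes and 0.00 over all genes.

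Cxcl10, the interferon-induced ligand of Cxcr3, has a promoter in which sites of interferon and NF-kappaB signalling are well known. The 250 bases before its start are shown for this reason, from RefSeq on GRCm38.p6, chr5:92348890-92349139, minus strand, printed 5′ to 3′ in the direction of transcription.
Cxcl10: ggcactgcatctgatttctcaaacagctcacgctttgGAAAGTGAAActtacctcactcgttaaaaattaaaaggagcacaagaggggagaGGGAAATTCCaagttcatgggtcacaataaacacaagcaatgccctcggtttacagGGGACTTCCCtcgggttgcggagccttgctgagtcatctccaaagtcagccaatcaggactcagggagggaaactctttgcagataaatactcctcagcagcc
The capitals mark matches to an interferon-stimulated response element, searched as GAAANNGAAA, and to a kappaB element, searched as GGGANNNNCC, both on either strand. The first lies 213 to 204 bases before the start and the 2 kappaB matches lie 159 to 150 and 103 to 94 bases before it, with no overlap between them. The interferon element occurred in 2.977% and the kappaB element in 17.634% of 32851 promoter windows of this length. Of the 47 windows found for 43 of the chemokine and receptor genes, 3 held the interferon element (Ccl19, Cxcl10 and Cxcl14) and 19 a kappaB element. A match describes letters only and is not evidence of binding.

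Cxcl10 read 2.14, 2.003 and 2.17 on Tsk2 arrays 1, 2 and 3. On WT arrays 1, 3A and 3B it read 4.49, 4.63 and 4.70. Every WT array was above every Tsk2 array. The difference was -2.50 (SE 0.103, 95% interval -2.76 to -2.24), a 5.66-fold lower level, with an adjusted p of 0.00934 by limma, the lowest p among all genes tested. Its call ended when Tsk2 array 1 (adjusted p = 0.117), Tsk2 array 2 (0.0544), WT array 3A (0.0982) or WT array 3B (0.0955) was left out, while the difference stayed between -2.52 and -2.45. Quantile normalization moved the difference to -3.19 (adjusted p = 0.0369). WT arrays 3A and 3B share the transfection number 3. With their mean as 1 sample the adjusted p was 0.0747, and in 1 fit for all 14 arrays it was 0.105, so both ended the call.

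Ccl5, also called RANTES, attracts T cells and monocytes. It read -0.14, -0.16 and 0.03 on the Tsk2 arrays and 1.36, 1.71 and 1.71 on the WT arrays. Again the groups did not overlap. The difference was -1.68 (SE 0.133), a 3.21-fold lower level, with an adjusted p of 0.0484. Its 2 probes gave -1.76 and -1.61, with adjusted p of 0.0701 and 0.101 when taken singly. Leaving out any 1 of the 6 arrays ended the call of Ccl5, with adjusted p between 0.0842 and 0.328 and differences between -1.80 and -1.62, and quantile normalization moved the difference to -2.30 (adjusted p = 0.0502). With the mean of WT 3A and 3B as 1 sample, the adjusted p of Ccl5 was 0.315.

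**Figure D1:**
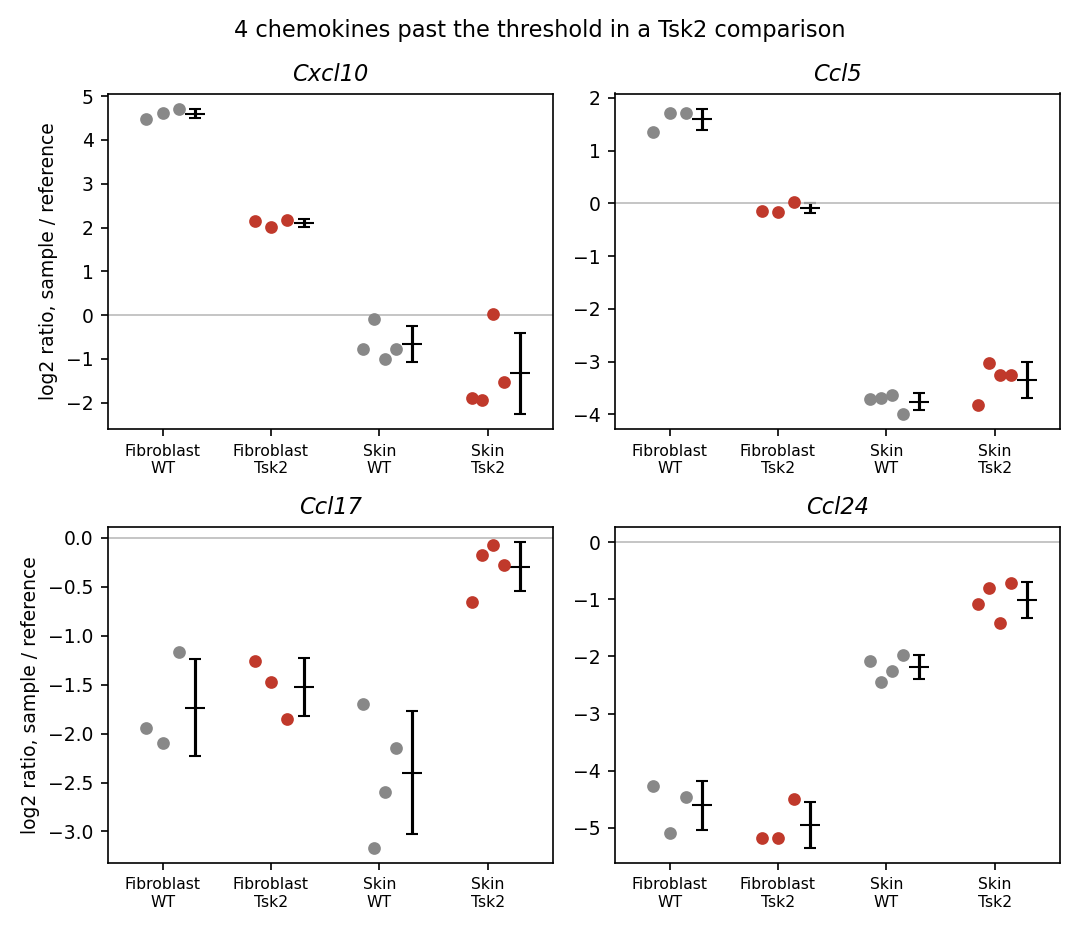
Log2 ratio to the reference of Cxcl10, Ccl5, Ccl17 and Ccl24 on each of the 14 arrays, by group (grey WT, red Tsk2), with the mean and SD of each group beside the points. In the cultures the 3 Tsk2 arrays lie below the 3 WT arrays for Cxcl10 and Ccl5, and in skin the 4 Tsk2 arrays lie above the 4 WT arrays for Ccl17 and Ccl24.

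The other Cxcr3 ligands were not called. Cxcl9 read 2.41, 1.17 and 1.84 with the Tsk2 allele and 2.47, 2.43 and 2.18 with the WT allele, a difference of -0.56 (adjusted p = 0.541). Cxcl11 read 3.06, 1.73 and 0.96 against 2.22, 3.12 and 3.52, a difference of -1.04 (adjusted p = 0.548). The groups overlapped for both genes. The 95% interval of Cxcl11, from -2.53 to 0.45, includes the difference of Cxcl10, and that of Cxcl9, from -1.34 to 0.23, does not. Of the regulators of chemokine genes on a separate list, 18 of 20 were measured and 0 were called in the cultures. One of them, Ifnb1, the interferon beta gene, read 2.03, 2.11 and 2.13 with the Tsk2 allele and 3.11, 3.59 and 3.70 with the WT allele (difference -1.37, adjusted p = 0.134), and was picked out after its values were seen. The interferon regulatory factor gene Irf7 read 2.17, 2.76 and 2.92 against 3.20, 3.34 and 3.12 (adjusted p = 0.411), likewise without overlap. The mean over this list lay between 0.78 and 0.90 on the Tsk2 arrays and between 0.98 and 0.99 on the WT arrays. That mean includes Ifnb1 and Irf7, and the median difference over the list was -0.10. The part of the list in the fall of Cxcl10 and Ccl5 was not tested.

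Among the remaining ligands, the 4 of lowest p in the cultures were not past the threshold. Cxcl14, a ligand made constitutively in skin, read 3.38, 3.27 and 3.24 with the Tsk2 allele and 2.83, 2.48 and 2.56 with the WT allele (difference 0.67, adjusted p = 0.220). Ccl12, a mouse ligand of Ccr2, read -0.70, -0.75 and -0.98 against -0.37, 0.25 and 0.06 (difference -0.79, adjusted p = 0.291). The groups did not overlap for either gene, and the direction was opposite in the 2 genes. Cxcl5 read 4.16, 4.37 and 4.04 against 3.89, 3.31 and 3.32 (difference 0.68, adjusted p = 0.349). Cxcl17, whose values were all repeated ones, differed by 1.27 (adjusted p = 0.354). In all, the Tsk2 and WT arrays did not overlap for 6 genes that were higher (Cxcl14, Cxcl5, Cxcl17, Ccl20, Ackr3 and Cxcr6) and 6 that were lower (Cxcl10, Ccl5, Ccl12, Cxcl16, Ccl25 and Ccr9). These are 10.7% of the genes in each direction, close to the 9.82% higher and 10.2% lower among all genes.

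The ligands of Ccr2 and the neutrophil ligands that read above the reference in the cultures were not called. Ccl2, the main ligand of Ccr2, read 2.89, 2.94 and 2.84 with the Tsk2 allele and 2.97, 3.03 and 2.55 with the WT allele. Ccl7, another ligand of Ccr2, read 4.52, 4.64 and 4.51 against 4.86, 4.59 and 4.39. Cxcl1 read 2.51, 2.38 and 2.34 against 2.48, 2.21 and 2.17. The groups overlapped for all 3 genes, and their differences lay between -0.06 and 0.12 (adjusted p between 0.703 and 0.931). The sign of each turned in at least 1 alternative setting. Cxcl2, also a neutrophil ligand, read 2.29, 2.83 and 2.26 against 2.64, 3.26 and 3.57 (difference -0.70, adjusted p = 0.448). Cxcl12, the ligand of Cxcr4 and Ackr3, differed by -0.07 (adjusted p = 0.791), with a 95% interval of -0.29 to 0.16.

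In skin, Ccl17 and Ccl24 rose in Tsk2 mice and no chemokine or receptor gene fell past the threshold. The 2 of 56 called higher compare with 1.91% of all genes, and the 0 called lower with 0.998%. At an unadjusted p below 0.05, 6 were higher and 1 lower, 7 of the 56 in all, beside 4503 of the 19532 genes tested. The median difference was 0.19 over the 56 genes and 0.03 over all genes.

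Ccl17, a ligand of Ccr4 made by dendritic cells that attracts type 2 helper and skin-homing T cells, read -0.65, -0.18, -0.07 and -0.28 on Tsk2 skin arrays 1 to 4. On WT skin arrays 1 to 4 it read -1.69, -3.16, -2.60 and -2.15. Every Tsk2 array was above every WT array. The difference was 2.11 (SE 0.306, 95% interval 1.41 to 2.80), a 4.30-fold higher level, with an adjusted p of 0.0243 by limma. In the cultures Ccl17 differed by 0.21 (adjusted p = 0.793).

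The 250 bases before the start of Ccl17 are shown beside those of Cxcl10, since the 2 genes were called in different systems (RefSeq on GRCm38.p6, chr8:94810203-94810452, plus strand).
Ccl17: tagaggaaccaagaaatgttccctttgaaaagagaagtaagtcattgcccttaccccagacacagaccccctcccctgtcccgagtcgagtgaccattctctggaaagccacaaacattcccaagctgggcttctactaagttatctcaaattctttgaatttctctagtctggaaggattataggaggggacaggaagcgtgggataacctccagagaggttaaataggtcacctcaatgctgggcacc
No capitals appear, because neither motif was found in this window. A window was not available for Ccl5 or Ccl24, the other genes called between Tsk2 and WT, so neither was searched.

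Ccl24, or eotaxin-2, attracts eosinophils through Ccr3 and is made mainly by macrophages. It read -1.08, -0.80, -1.42 and -0.72 in Tsk2 skin and -2.09, -2.45, -2.26 and -1.97 in WT skin, again without overlap. The difference was 1.19 (SE 0.197, 95% interval 0.74 to 1.64), a 2.28-fold higher level, with an adjusted p of 0.0288. Both of its probes were past the threshold, at 1.18 (adjusted p = 0.0410) and 1.20 (adjusted p = 0.0361). Ccl11, the other eotaxin on the array, read 4.52, 4.86, 4.75 and 4.80 in Tsk2 skin and 4.16, 7.06, 4.52 and 3.99 in WT skin (difference -0.20, adjusted p = 0.870). Its groups overlapped, with WT replicate 2 above all others. Without that array, the one with the many exact zeros, the difference of Ccl11 turned to 0.51 (adjusted p = 0.170).

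The calls of Ccl17 and Ccl24 both ended when Tsk2 replicate 2, 3 or 4 or WT replicate 1, 2 or 3 was left out, and in each of these fits 0 genes of all those tested passed the limma threshold, while 3473 to 4145 genes and 5 to 9 of the 56 had an unadjusted p below 0.05. Ccl17 then differed by 1.85 to 2.34 (adjusted p between 0.0541 and 0.0933) and Ccl24 by 1.09 to 1.33 (0.0630 to 0.0994). Without WT replicate 2, the differences were 1.85 and 1.10.

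Markers of other cell types of the skin were read on the same arrays. Of 7 measured markers of dendritic and Langerhans cells, 1 rose, Itgax, the integrin CD11c, by 0.79 (adjusted p = 0.0478), and 0 fell. The mean over that list was 2.21 to 2.52 in Tsk2 skin and 1.70 to 2.30 in WT skin. Of 7 macrophage markers 0 were called, with means of 1.59 to 1.90 against 0.84 to 1.89. Of 6 mast cell markers 0 were called, with means of 2.96 to 3.15 against 2.25 to 2.56, which do not overlap. Of 14 hair follicle and shaft markers 7 fell, with means of 0.29 to 3.72 against 4.40 to 6.04, and of 8 fibroblast markers 2 rose, Lum and Pdgfrb, with means of 2.46 to 2.76 against 1.17 to 2.20. Of 6 endothelial markers 0 were called, with means of 2.20 to 2.70 against 1.04 to 2.08, again without overlap. The 3 markers of all leukocytes averaged -0.76 to -0.23 against -1.53 to -0.66, with 0 called. Of 7 T cell markers 0 were called, with means of 0.01 to 0.15 against -0.34 to 0.15. Of 4 B cell, 6 neutrophil and 4 keratinocyte markers 0 were called, and the means of each list overlapped between the genotypes. No gene of these lists was at 0 on every array of a group. At 0 on at least 1 array were 2 macrophage, 1 mast cell, 2 endothelial, 2 B cell, 3 neutrophil and 7 hair markers. The part of these shifts in the rise of Ccl17 and Ccl24 was not tested.

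**Figure D2:**
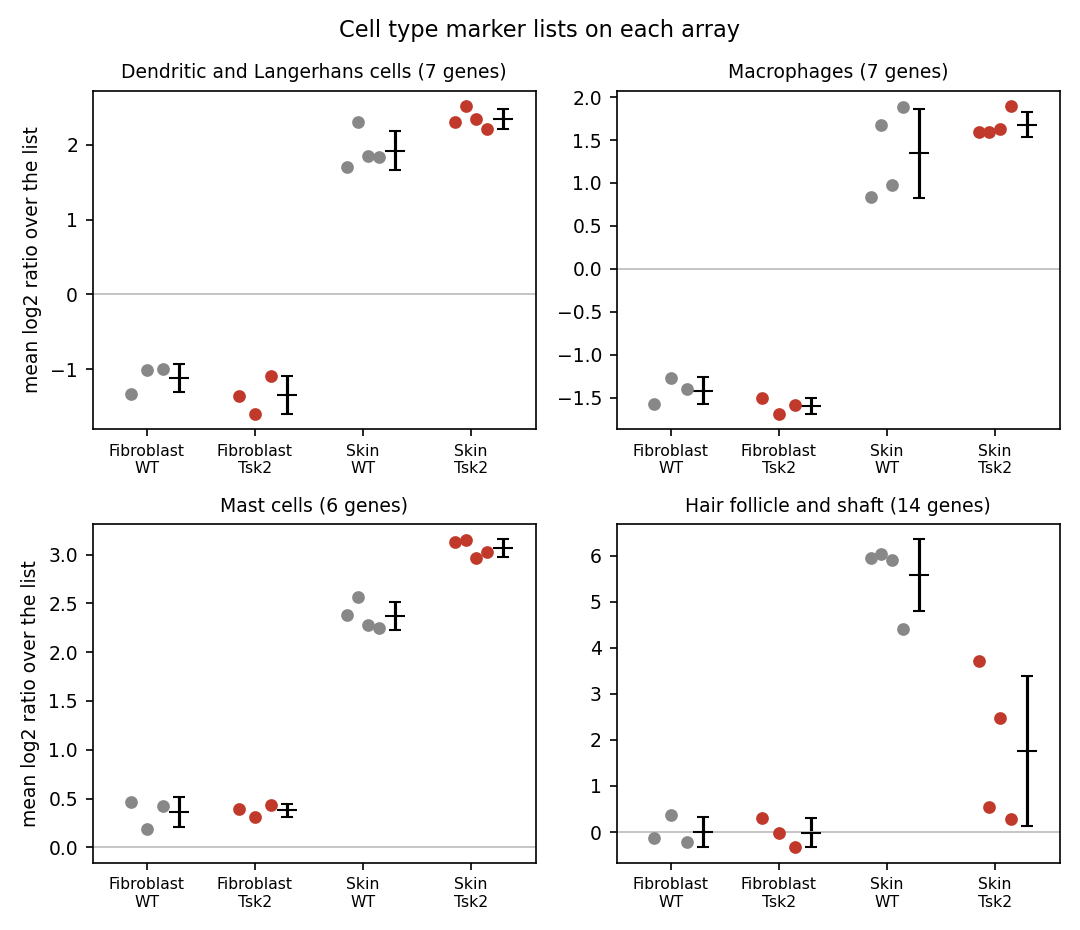
Mean log2 ratio over the measured markers of dendritic and Langerhans cells, macrophages, mast cells and the hair follicle and shaft on each array (grey WT, red Tsk2), with the mean and SD of each group. Mast cell markers lie higher, at 2.96 to 3.15, in Tsk2 skin than in WT skin, at 2.25 to 2.56, and hair markers lie lower, at 0.29 to 3.72 against 4.40 to 6.04.

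The receptors of the 2 ligands that rose were not called. Ccr4, the receptor of Ccl17, read -1.05, -0.78, -1.13 and -1.09 in Tsk2 skin and -1.80, -0.91, -0.30 and -0.67 in WT skin (difference -0.09, adjusted p = 0.880). Its 2 probes had opposite signs, 0.44 and -0.63, and neither was past the threshold. The second probe held exact zeros on WT replicates 2 and 3. Ccr3, the receptor of Ccl24, differed by -0.09 (adjusted p = 0.813), with 93.8% of its skin values repeated. Both receptors overlapped between the groups, and repeated values limit what the array could show of them. Ccl22, the other ligand of Ccr4, had only repeated values and differed by 0.28 (adjusted p = 0.750).

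Over the 17 signalling receptors, 11 were higher and 6 lower in Tsk2 skin, with 0 called by limma and a median difference of 0.39. Of all genes, 52.7% were higher in Tsk2 skin. All but Ccr9 and Cxcr6 of these receptors had repeated values among their skin arrays. Ccr9, the receptor of Ccl25 and best known for guiding T cells to the gut, read -0.53, -0.15, -0.57 and -0.34 in Tsk2 skin and -1.26, -1.01, -1.08 and -0.96 in WT skin. The groups did not overlap, and the difference of 0.68 (SE 0.153) had an adjusted p of 0.0535. Its ligand Ccl25 read -1.0005, -0.47, -1.23 and -0.77 against -0.55, -0.52, -0.18 and -0.88 (difference -0.33, adjusted p = 0.397). Ccr6, the receptor of Ccl20, differed by 0.87 (adjusted p = 0.184), Ccr10, the receptor of Ccl27a, by 0.99 (0.199) and Cxcr6, the receptor of Cxcl16, by 0.67 (0.292). The 3 genes whose groups did not overlap in skin were Ccl17, Ccl24 and Ccr9, all higher in Tsk2 mice. They are 5.36% of the 56, against 9.33% of all genes without overlap and higher, and the 0 without overlap and lower stand against 6.75%.

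Ccl4, a CC ligand that attracts monocytes and T cells, had the largest difference of the 56 genes in skin, -5.26 (adjusted p = 0.0783), but it rested on values listed at exactly 0. It read -7.99, -5.23, -7.96 and -6.02 in Tsk2 skin and -6.18, 0, 0 and 0 in WT skin, so no fold is given. Ccl19, a ligand of Ccr7, read 5.71, 6.45, 6.13 and 5.73 in Tsk2 skin and 5.38, 5.71, 5.61 and 4.99 in WT skin (difference 0.58, adjusted p = 0.181). The lowest Tsk2 array and the highest WT array met at 5.71. Ccl21a, the other ligand of Ccr7 here, differed by 0.20 (adjusted p = 0.729), and Ccr7 itself by 0.48 (0.650). Cxcl10, called in the cultures, read -1.89, -1.94, 0.03 and -1.54 in Tsk2 skin and -0.77, -0.08, -1.02 and -0.79 in WT skin (difference -0.67, 95% interval -1.66 to 0.33, adjusted p = 0.399). Ccl5 read -3.82, -3.03, -3.25 and -3.26 against -3.71, -3.69, -3.63 and -3.99 (difference 0.42, 95% interval -0.03 to 0.86, adjusted p = 0.247). Both overlapped between the genotypes in skin.

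**Figure D3:**
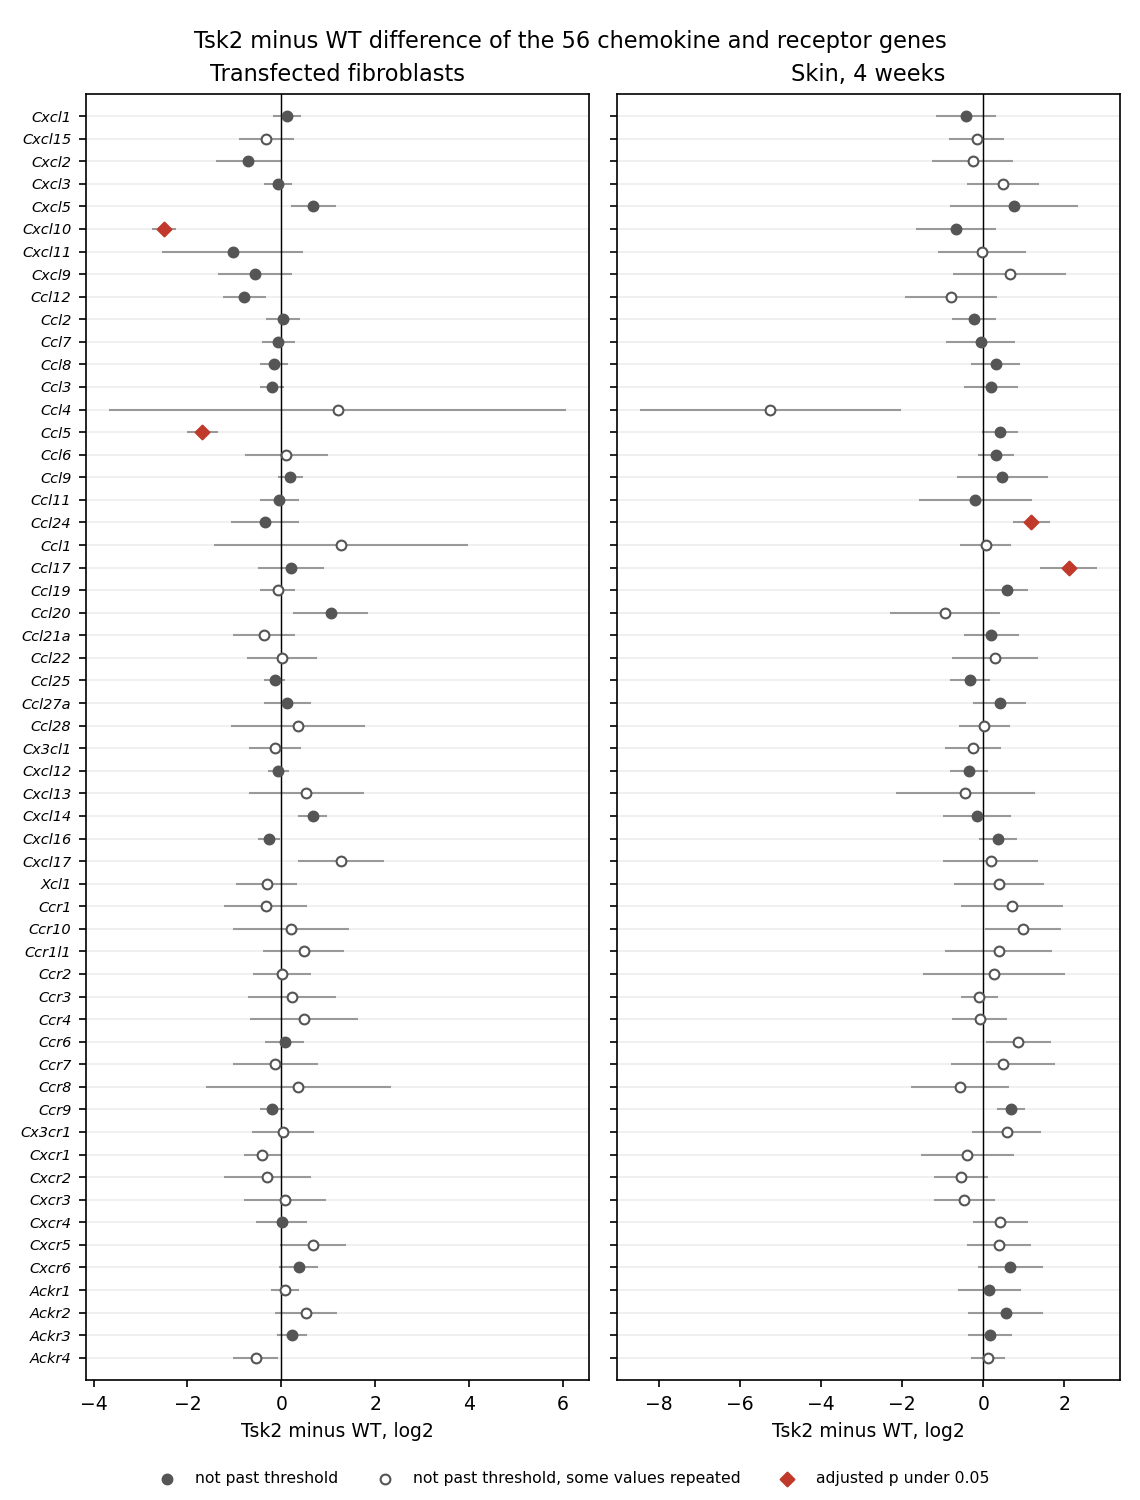
Tsk2 minus WT difference in log2 ratio for the 56 genes in the transfected fibroblasts (left) and in skin (right), with 95% intervals. Red diamonds mark an adjusted p below 0.05, open circles genes with some repeated values in the comparison. Cxcl10 at -2.50 and Ccl5 at -1.68 stand out on the left, Ccl17 at 2.11 and Ccl24 at 1.19 on the right. Ccl4 has wide intervals in both panels.

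Genes that act downstream of chemokine receptors or process chemokines were counted as a separate list of 23, all measured. In the cultures 0 were called. In skin 2 rose and 0 fell, against 1.91% of all genes called higher and 0.998% lower. Ccrl2, an atypical receptor that binds the chemoattractant chemerin, read -0.92, 0.02, -0.72 and 0.06 in Tsk2 skin and -1.56, -1.97, -1.70 and -1.49 in WT skin (difference 1.29, adjusted p = 0.0414). Rgs1, a regulator that damps chemokine receptor signalling in leukocytes, read -2.09, -1.81, -1.999 and -2.29 against -3.30, -3.35, -2.96 and -2.83 (difference 1.07, adjusted p = 0.0290). Neither gene overlapped between the groups. The list had a median difference of 0.32 in skin, above the 0.03 of all genes, and of -0.11 in the cultures. Of the regulators of chemokine genes, 0 of 18 were called in skin, where their median difference was 0.31.

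Whether the Tsk2 effect differed between skin and cultures was tested as a difference of the 2 effects in 1 fit of all arrays. Ccl5 and Ccr9 passed, both more positive in skin, as 2 of 56 against 0.901% of all genes in that direction, and 0 of 56 passed the other way against 0.497%. For Ccl5 the effect in skin minus that in cultures was 2.10 (SE 0.256, 95% interval 1.54 to 2.65, adjusted p = 0.0109), from 0.42 in skin and -1.68 in cultures. It passed in all 21 alternative settings run, with adjusted p from 0.000983 to 0.0454. For Ccr9 the difference was 0.88 (SE 0.189, adjusted p = 0.0415), from 0.68 in skin and -0.20 in cultures, and it was lost in 15 of the 21 alternatives, 12 of which leave out 1 array (adjusted p from 0.0545 to 0.128). The differences for Ccl24 (1.53, adjusted p = 0.0524), Ccl17 (1.90, 0.0610) and Cxcl10 (1.83, 0.120) were not past the threshold. The cultures and skin also differ in the Col3a1 knockout, the cells and the RNA extraction kit, and these cannot be told apart.

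The window before the start of Ccr9 is given because this receptor passed the test between systems (RefSeq on GRCm38.p6, chr9:123766961-123767210, plus strand).
Ccr9: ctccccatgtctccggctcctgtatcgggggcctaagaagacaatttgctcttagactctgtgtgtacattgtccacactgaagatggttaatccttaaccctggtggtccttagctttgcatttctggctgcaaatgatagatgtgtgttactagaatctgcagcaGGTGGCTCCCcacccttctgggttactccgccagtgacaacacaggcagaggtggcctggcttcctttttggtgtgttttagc
The capitals mark 1 kappaB match, on the opposite strand, 83 to 74 bases before the start.

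Between skin and the cultured fibroblasts, taken over both genotypes, 35 of the 56 genes differed, with 22 higher in skin and 13 lower. These are 39.3% and 23.2% of the genes, against 29.2% and 24.9% of all genes, so the share lower in skin was near the background. By role, the calls ran in different directions. All 4 atypical receptors were called higher in skin, 6 of 17 signalling receptors were higher and 0 lower, and 4 of 5 neutrophil CXC ligands were lower and 0 higher. The median differences were 1.60 for the atypical receptors, 0.24 for the signalling receptors and -6.49 for the neutrophil ligands, beside 0.00 over all genes.

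**Figure D4:**
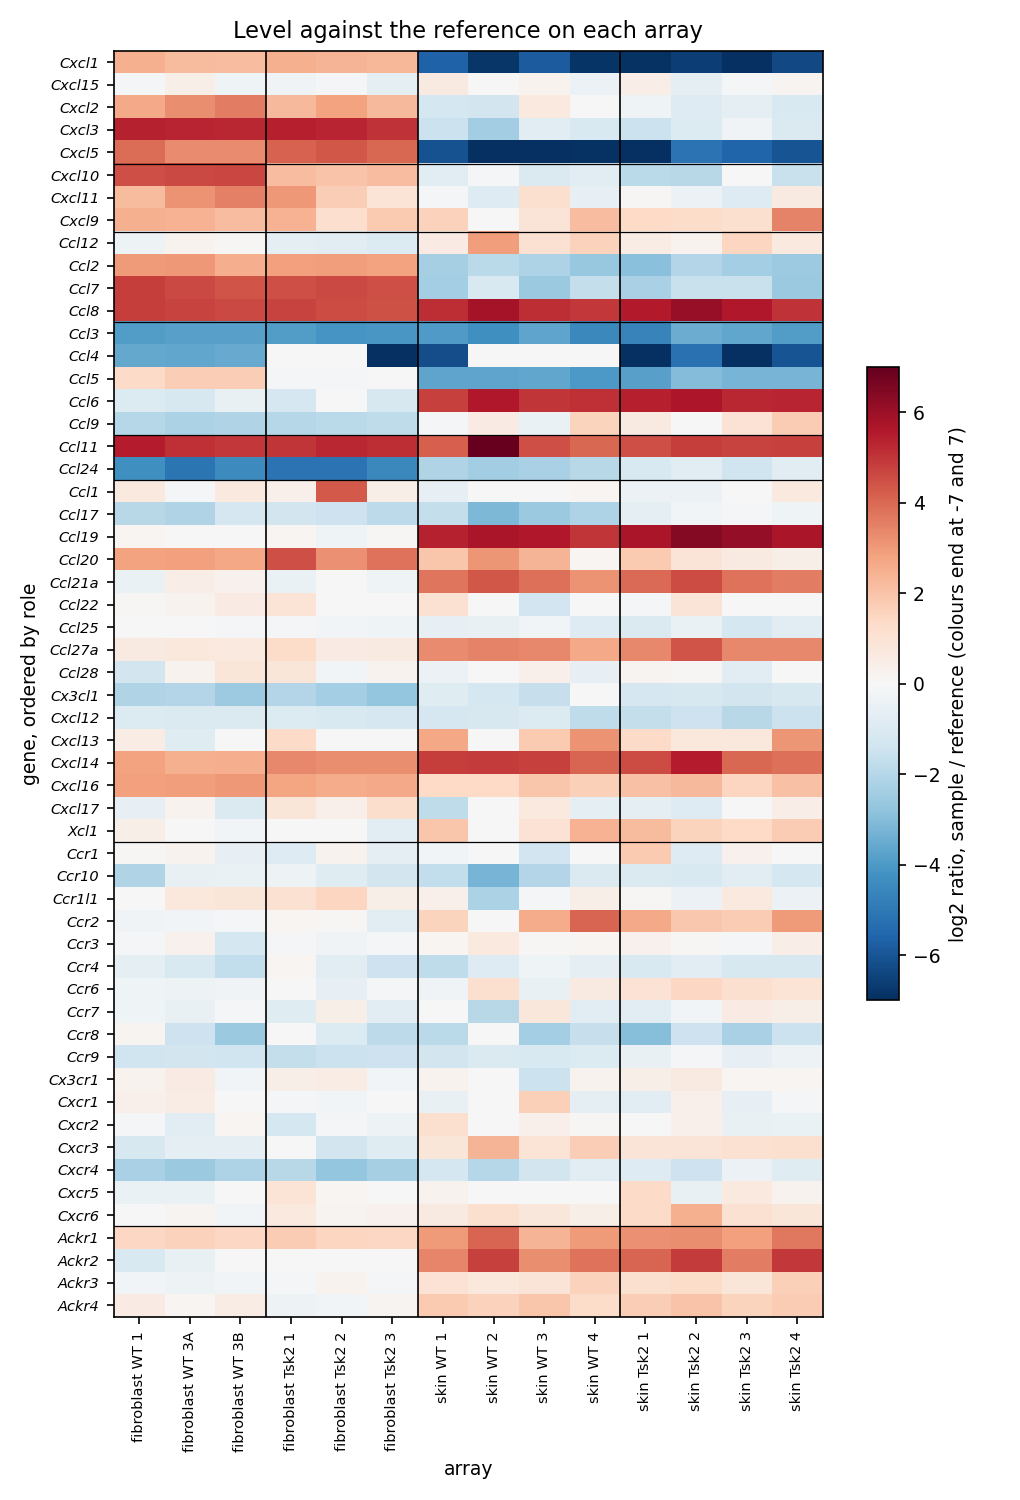
Log2 ratio to the reference of the 56 genes on each of the 14 arrays, with genes in rows ordered by role (horizontal lines divide roles) and arrays in columns grouped by system and genotype. Red is above and blue below the reference, and the colours end at -7 and 7. The neutrophil ligands Cxcl1 and Cxcl5 are red in all cultures and dark blue in all skin arrays, and the atypical receptors at the bottom are redder in skin.

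The neutrophil ligands were the most divided group. Cxcl5 lay between 3.31 and 4.37 on the 6 culture arrays and between -8.32 and -5.14 on the 8 skin arrays, a difference of -10.51 (adjusted p = 5.82e-10 by limma). Cxcl1 lay between 2.17 and 2.51 in cultures and between -7.09 and -5.69 in skin, a difference of -8.86 (adjusted p = 5.71e-12). Cxcl3 lay between 5.07 and 5.43 in cultures and between -2.42 and -0.27 in skin, where 75% of its values were repeated, a difference of -6.49 (adjusted p = 2.31e-10). The systems did not overlap for these ligands. Cxcl2 differed by -3.41 (adjusted p = 5.51e-07), again with 87.5% of its skin values repeated. Cxcl15, known in mouse as lungkine, had only repeated values and was not called (0.20, adjusted p = 0.455). Their receptors Cxcr1 and Cxcr2 were at repeated values on most or all arrays in both systems and were not called.

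The Ccr2 ligands split. Ccl2 lay between 2.55 and 3.03 in cultures and between -2.94 and -1.88 in skin (difference -5.23, adjusted p = 4.17e-11). Ccl7 lay between 4.39 and 4.86 in cultures and between -2.59 and -1.09 in skin (difference -6.55, adjusted p = 1.77e-10). Ccl12 was higher in skin by 1.56 (adjusted p = 0.00101). Ccl8 is a relative of Ccl2 that in mouse acts through Ccr8. It read above the reference in both systems, at 4.44 to 4.86 in cultures and 4.92 to 6.11 in skin. Its difference of 0.77 (adjusted p = 0.00148) turned to -1.35 (adjusted p = 1.28e-07) under quantile normalization, so the direction of Ccl8, counted above as higher, depends on the normalization. Ccr2 itself was higher in skin by 2.37 (adjusted p = 0.00117), with all of its culture values repeated.

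Cxcl10 and Ccl5 were lower in skin than in cultures, by -4.35 (adjusted p = 2.23e-08) and -4.30 (3.62e-11). Cxcl11 was lower by -2.55 (adjusted p = 0.000112), with all of its skin values repeated, and Cxcl9 was not called (-0.59, adjusted p = 0.247). Cxcr3, their receptor, was higher in skin by 1.99 (adjusted p = 1.99e-05). Among the other inflammatory CC ligands, Ccl6 lay between -1.18 and 0 in cultures and between 4.77 and 5.63 in skin (difference 6.09, adjusted p = 6.83e-11), and Ccl9 was higher in skin by 2.62 (8.77e-06). Ccl3 read below the reference in both, at -4.12 to -3.80 in cultures and -4.70 to -3.46 in skin (difference -0.08, adjusted p = 0.738). Ccl4 held exact zeros in both.

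Ccl19 and Ccl21a, which guide dendritic cells and naive T cells through Ccr7, both read above the reference in skin. Ccl19 lay between 4.99 and 6.45 there and between -0.31 and 0.16 in cultures, where 58.3% of its values were repeated (difference 5.69, adjusted p = 1.73e-11). Ccl21a lay between 3.16 and 4.59 there and between -0.45 and 0.46 in cultures, where all its values were repeated (difference 3.96, adjusted p = 5.80e-09). Ccl27a, the keratinocyte ligand of Ccr10, lay between 2.67 and 4.39 in skin and between 0.56 and 1.26 in cultures (difference 2.65, adjusted p = 9.83e-08). The 4 keratinocyte markers averaged 3.46 to 4.93 in skin and -0.55 to 0.01 in cultures. Ccl24 lay between -2.45 and -0.72 in skin and between -5.18 and -4.27 in cultures (difference 3.18, adjusted p = 5.28e-09), whereas Ccl11 lay at 3.99 to 7.06 in skin and 4.96 to 5.505 in cultures and was not called (-0.33, adjusted p = 0.506). Ccl17 was not called between the systems either (0.28, adjusted p = 0.321).

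Of the other homeostatic ligands, Cx3cl1, the membrane-bound ligand of Cx3cr1, was higher in skin by 1.26 (adjusted p = 0.000188), Xcl1, the ligand of Xcr1, by 1.63 (0.000806), and Cxcl13, the B cell attractant, by 1.52 (0.0261). Xcl1 and Cxcl13 held exact zeros and only repeated values in cultures, and the call of Cxcl13 ended without fibroblast Tsk2 replicate 2 (adjusted p = 0.0596), Tsk2 replicate 3 (0.0601) or WT replicate 3A (0.0677). Cxcl14 lay between 2.48 and 3.38 in cultures and between 3.86 and 5.505 in skin (difference 1.60, adjusted p = 5.91e-05), but quantile normalization gave -0.22 (adjusted p = 0.242). Ccl20, Cxcl16, Ccl25 and Cxcl12 were lower in skin, by -1.90 (adjusted p = 0.00122), -1.02 (1.56e-05), -0.57 (0.00245) and -0.42 (0.0147). Ccl1, Ccl22, Ccl28 and Cxcl17, at repeated values on most or all arrays, were not called between the systems.

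Ackr2, which degrades inflammatory CC chemokines, lay between 3.28 and 4.93 in skin and between -1.05 and 0.05 in cultures (difference 4.37, adjusted p = 2.53e-08). Ackr1, the Duffy antigen receptor of venules and red cells, was higher in skin by 1.63 (adjusted p = 2.50e-05), Ackr4, a scavenger of Ccl19, Ccl21 and Ccl25, by 1.58 (4.61e-07), and Ackr3, a scavenger of Cxcl12, by 1.26 (1.10e-05). In the cultures, 83.3% of the Ackr2 values, 25% of the Ackr1 values and all Ackr4 values were repeated ones, as were 50% of the Ackr4 values in skin. None of the 4 was called between Tsk2 and WT in either system, with differences from 0.12 to 0.55 in skin and from -0.55 to 0.52 in cultures (lowest adjusted p = 0.461 and 0.407 by limma). Among the signalling receptors, Cxcr4 was higher in skin by 1.23 (adjusted p = 0.000214), Ccr6 by 0.95 (0.00317), Cxcr6 by 0.90 (0.00454) and Ccr9 by 0.72 (2.26e-05). Ccr1, Ccr1l1, Ccr3, Ccr4, Ccr7, Ccr8, Ccr10, Cx3cr1, Cxcr1, Cxcr2 and Cxcr5 were not called. Each of these 11 receptors had at least 1 repeated value in both systems.

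Many chemokine genes lie side by side in the genome, and neighbours did not always move alike. Groups were formed of members with at most 5 other protein-coding genes between them in the RefSeq annotation. In the cluster of Cxcl5, Cxcl3, Cxcl15, Cxcl1 and Cxcl2, 4 of 5 were lower in skin than in cultures, and in that of Cxcl9, Cxcl10 and Cxcl11, 2 of 3. In the cluster of Ccl2, Ccl7, Ccl11, Ccl12, Ccl8 and Ccl1, 2 were higher and 2 lower. Ccl8, counted there as higher, turned to lower under quantile normalization. In the cluster of Ccl5, Ccl9, Ccl6, Ccl3 and Ccl4, 2 were higher and 1 lower. Ccl19 and Ccl21a, also neighbours, were both higher, and in the cluster of Ccr9, Cxcr6, Ccr1, Ccr1l1, Ccr3 and Ccr2, 3 were higher and 0 lower. Of all genes, 29.2% were called higher in skin and 24.9% lower. Within the clusters of Cxcl10 and Ccl5, these were the only genes called between Tsk2 and WT cultures, and Ccl17 was the only one called in skin of the cluster it forms with Ccl22 and Cx3cl1. Ccl24 was not in any of these clusters.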

How the data were processed

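Total RNA of each sample, labelled with Cy5, was hybridised with a Cy3-labelled universal mouse reference, per the labels, with no dye swap. The deposited values are log2 ratios as taken here; the authors' base is not stated, and the range of -9.553 to 10.965 would be implausible for log10. A positive value means more signal from the sample, by the labels' dyes. How the images were extracted, corrected and normalized is not given in the sources used here. Each array's median lay between 0 and 0.043. No intensity, slide or scan information was used here, and batches could therefore not be tested.

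Of 41174 probes, 32664 had 1 gene symbol, 45 had several and 8465 were unnamed here. A gene's value was the mean of its probes, and all 56 genes were found in the RefSeq table of GRCm38.p6. Columns that matched no sample numbered 0. Ccl21b, Ccl21c and Ccl27b were not analysed here.

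Groups follow the labels. Fits used limma 3.58.1 under R 4.3.3 (lmFit and eBayes, two-sided), the Tsk2 comparisons on their own arrays and the others on all 14, and tested on simulated data. A gene entered with values on at least 2 arrays per fibroblast group and 3 per skin group. Members and lists were chosen with earlier results of these data known. Genes named with statistics were those called, the 6 of lowest p in each Tsk2 comparison, the 6 largest calls without overlap in each direction between skin and cultures, and 16 chosen by name; the others are given with their role, and Ifnb1 and Irf7 were picked after their values were seen. Alternatives covered normalization, exact zeros, dim probes, probe choice, array weights, missing values, each replicate, the 2 transfections numbered 3, a replicate block and 1 fit for all arrays. The number of arrays limits the precision.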

Additional observations from a re-analysis of the deposited data

Results flagged for a closer look

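Of 112 groups of 4 skin arrays tested, 11 held 1 array far from the other 3, where chance alone flags about 1 in 20 groups. In Tsk2 skin, Ccl27a read 4.39 on replicate 2 against 3.35 to 3.36 on the others, and Ccl22 read 0.90 on the same array against -0.07 to 0.02. Cxcl9 read 3.46 on Tsk2 replicate 4 against 1.13 to 1.42, and Ccl28 read -0.77 on Tsk2 replicate 3 against 0.02 to 0.17. In WT skin, replicate 4 was low for both constitutive skin ligands, at 2.67 for Ccl27a against 3.33 to 3.46 and at 4.05 for Cxcl14 against 4.76 to 4.89. WT replicate 3 was low for 2 receptors, at -1.49 for Cx3cr1 against 0 to 0.25 and at -1.33 for Ccr1 against -0.21 to 0. Ccr3 read 0.70 on WT replicate 2 against 0.08 to 0.14. Ccl4 read -6.18 and Cxcr5 0.22 on WT replicate 1, where the other 3 WT arrays were listed at exactly 0. Ccl22, Ccl28, Cx3cr1, Ccr1, Ccr3 and Cxcr5 rested mostly on repeated values.

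The Tsk2 effect differed between skin and cultures for Ccl5, by 2.10, and for Ccr9, by 0.88, on the log2 scale, by the test of the difference itself.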

How the results depend on the processing

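The number of genes called between Tsk2 and WT rested on few arrays. In the cultures 2 were called. Quantile normalization, exact zeros as missing, or the most variable probe per gene left 1, Cxcl10, and 1 fit for all arrays left Ccl5. The mean of WT 3A and 3B as 1 sample gave 0 by limma (9 at an unadjusted p below 0.05, beside 1478 of all genes). Leaving out 1 array gave 0 to 2. The 2 were Cxcl10 and Ccl4, without Tsk2 replicate 3, with Ccl4 at exactly 0 on the remaining Tsk2 arrays. In skin 2 were called, and 4 without probes at repeated values (Ccl4 and Ccr9 added). That setting drops a probe only if it had repeated values in every group compared, so Ccl4 stayed with its exact zeros in WT skin. Leaving out 1 skin array gave 0 to 3. The fits at 0 kept 5 to 9 at an unadjusted p below 0.05, beside 3473 to 4145 of all genes. For the difference between systems 2 were called, 4 without probes at repeated values or with array weights, 1 with the most variable probe or with 3A and 3B as 1 sample, and 1 to 5 without 1 array, the 5 being without WT skin replicate 4. Between skin and cultures 35 were called, and 34 to 38 under the alternatives. Over all genes, the cultures gave 10 calls and 0 to 102 under the alternatives, skin 568 and 0 to 2814, and the difference 273 and 6 to 1492. The causes were not tested.

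Deviations of like-numbered fibroblast arrays correlated at 0.0194, 0.00820 and 0.0169, above the -0.0247 to 0.00686 of the other Tsk2 and WT pairs. All of these values are small and rest on few arrays, so they cannot show whether the transfection numbers pair the samples. With the transfection number as a replicate block, 0 of the 56 genes were called in cultures. At an unadjusted p below 0.05 there were 10, beside 1812 of all genes. In that fit Cxcl10 differed by -2.43 (adjusted p = 0.303) and Ccl5 by -1.60 (0.429). The genes called in a Tsk2 comparison kept their direction under every alternative run. Over all 56 genes, the sign of the Tsk2 difference turned in at least 1 alternative for 24 in cultures and 22 in skin. Among them were Ccl11 and Ccl7 in both systems and Ccl2 in cultures only. Dim probes limit the receptors, and signal over background was not used here.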
